A study of Mus musculus with 12 samples.

Results

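*Eda2r*, *Cd80* and *Serpine2* are 3 of the 24881 gene symbols in the RNA-seq table of WT and P53-/- mouse embryonic stem cells (ESCs), and they were chosen because almost no transcript of them was left without P53, in either culture. The choice used all 8 FPKM values of each gene (fragments per kilobase of transcript, scaled to the mapped fragments of the library), so their difference between P53-/- and WT is described here without a test. All 3 passed the filter on low values that was set for the tests, a mean FPKM of at least 0.5 over the 8 libraries, as did 12572 genes in all.

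The cells were R1 ESCs carrying the FUCCI cell cycle reporters, and every library came from cells sorted in G1 phase. There were 4 groups of 2 libraries: WT and P53-/- ESCs in 2i, a defined medium with LIF and inhibitors of MEK and GSK3, and WT and P53-/- ESCs in medium with serum and LIF. P53 was removed with CRISPR/Cas9 at an exon that the *Trp53* isoforms share, and clones 1 and 2 of the edited cells were used for RNA-seq, so what these clones share besides the loss of P53 cannot be told apart from it. The table does not say which library came from which clone, or whether the WT libraries were grown separately, and p values here measure the spread between libraries, which may be technical. *Trp53*, the gene for P53, had an FPKM of 26.8 and 33.7 in WT libraries against 7.25 and 1.88 in P53-/- libraries of the 2i culture. The serum libraries had 77.6 and 75.1 against 16.8 and 3.68. It was lower in every P53-/- library than in any WT library of the same culture, but its transcript was not absent, and a transcript level does not check the edit itself.

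The depth of a library was estimated from the steps between low FPKM values. It is known only up to a factor, which was assumed to be common to all libraries and not checked. The estimates came to between 5130000 and 12880000 fragments, and between 15181 and 15792 genes were above 0 in a library. All 8 ESC markers listed had a mean of at least 1 FPKM in each group. The WT and P53-/- libraries also differed in 3 genes of the Y chromosome, which all 4 P53-/- libraries listed at 0.

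P53 is a transcription factor that binds DNA as a tetramer, at sites made of paired half-sites, and raises transcription of genes that act in cell cycle arrest, DNA repair and cell death. *Eda2r* encodes a receptor of the TNF receptor family (also called XEDAR) for the A2 form of ectodysplasin, a ligand known from the development of hair, teeth and sweat glands. *Cd80* encodes B7-1, a surface ligand on antigen-presenting cells that binds CD28 and CTLA4 on T cells. *Serpine2* encodes protease nexin-1, a secreted inhibitor of thrombin, urokinase and plasmin that acts at the cell surface. The 3 products act in different systems, and none of them is a usual marker of ESCs.

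In GENCODE M21 on GRCm38, *Eda2r* (ENSMUSG00000034457.10) lies on the minus strand at chrX:97333840-97377216, with 4 transcripts. *Cd80* (ENSMUSG00000075122.5) lies on the plus strand at chr16:38455561-38496335, with 3 transcripts. *Serpine2* (ENSMUSG00000026249.10) lies on the minus strand at chr1:79794197-79861180, with 6 transcripts. No other annotated gene overlaps them, so their reads were not shared with an overlapping gene of this annotation. The table itself holds symbols and no coordinates, and the labels name mm9, so these positions belong to GRCm38 and not to the build of the reads.

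The 250 bases before the RefSeq transcript start of each gene (GRCm38.p6) are shown because the 3 genes were picked for their dependence on a DNA-binding factor. They cover chrX:97377210-97377459 on the minus strand for *Eda2r*, chr16:38458683-38458932 on the plus strand for *Cd80* and chr1:79858666-79858915 on the minus strand for *Serpine2*. All are written 5′ to 3′, ending at the base before the start, and each start used lies inside the GENCODE gene, by a few bases for *Eda2r*, since other transcripts begin further upstream. Capitals mark ten-base matches to the P53 half-site consensus with up to 1 mismatch. They also mark TATAAA and GGGCGG, the core of the GC box, both searched on either strand.
Eda2r: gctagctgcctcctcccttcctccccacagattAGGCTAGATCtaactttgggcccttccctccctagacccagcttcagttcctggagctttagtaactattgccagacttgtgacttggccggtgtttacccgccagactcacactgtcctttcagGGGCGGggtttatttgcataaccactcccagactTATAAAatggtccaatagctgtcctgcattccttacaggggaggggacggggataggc
Cd80: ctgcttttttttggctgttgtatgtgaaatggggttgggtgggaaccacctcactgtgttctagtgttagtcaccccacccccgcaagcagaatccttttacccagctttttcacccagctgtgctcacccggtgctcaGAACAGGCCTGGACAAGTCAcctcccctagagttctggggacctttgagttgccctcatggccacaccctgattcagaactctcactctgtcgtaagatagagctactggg
Serpine2: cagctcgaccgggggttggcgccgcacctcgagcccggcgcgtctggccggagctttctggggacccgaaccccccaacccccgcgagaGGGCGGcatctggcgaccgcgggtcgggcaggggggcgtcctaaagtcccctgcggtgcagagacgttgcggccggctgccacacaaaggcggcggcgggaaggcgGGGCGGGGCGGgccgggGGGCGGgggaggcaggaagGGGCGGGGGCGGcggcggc

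The 3 windows had little in common. An exact P53 half-site was in none of them and in 7.13% of the 32851 RefSeq promoters of this length. With up to 1 mismatch, the *Eda2r* window held 1 half-site, at -217 to -208, the *Cd80* window held 2, at -111 to -102 and -101 to -92, and the *Serpine2* window held 0, while 63.8% of all promoters held at least 1. The *Cd80* half-sites abut, an arrangement in 126 promoters, or 0.384% of all. That search was added after the letters had been seen, and half-sites 0 to 13 bases apart were in 5.6% of promoters. These matches are letters only, and no binding was measured in the values used here.

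Base composition set *Serpine2* apart from the other two. Its window was 78.8% G and C with 34 CpG, above 98.3% of promoters in G and C and above 96.5% in CpG. *Eda2r* had 53.2% G and C with 4 CpG and *Cd80* had 52.8% with 3 CpG. Their G and C content was near the median of 52.4% over all promoters, and their CpG counts were under the median of 6. In CpG *Eda2r* was above 37.8% of promoters and *Cd80* above 29.0%. The *Eda2r* window held TATAAA at -58 to -53, on the strand shown, and GGGCGG at -92 to -87. TATAAA on either strand was in 12.4% of promoters. GGGCGG was in 32.7% of promoters, in the *Serpine2* window 6 times (a pair of them overlapping by one base, within -55 to -45), and not in the *Cd80* window.

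**Figure D1:**
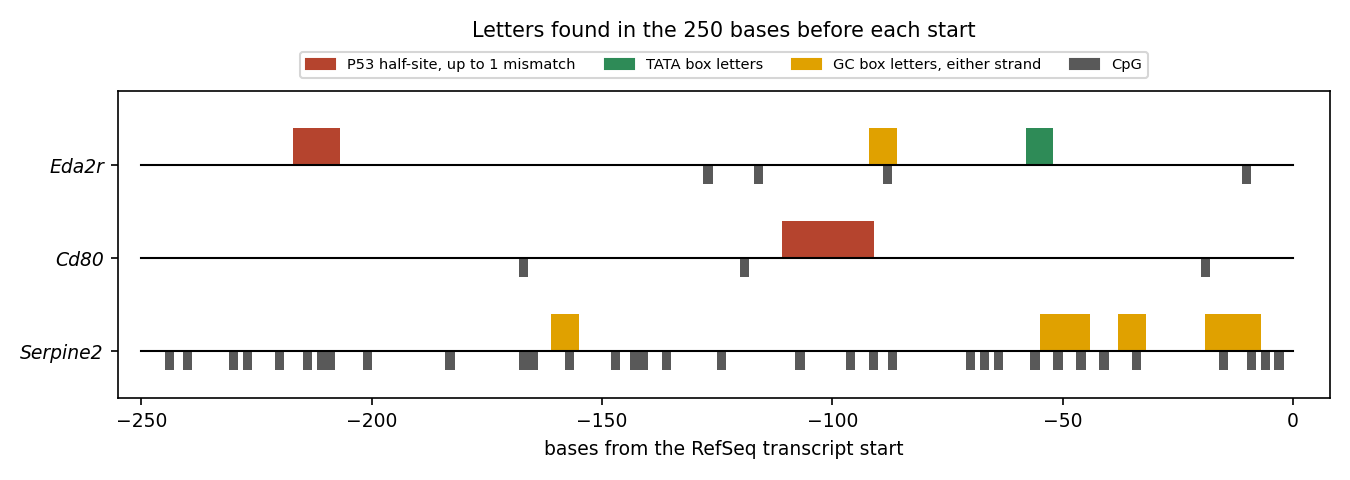
Letter matches in the 250 bases before the RefSeq start of *Eda2r*, *Cd80* and *Serpine2*, by distance from the start in bases. Boxes above each line are half-site, TATA box and GC box matches and marks below it are CpG, of which *Serpine2* has 34, *Eda2r* 4 and *Cd80* 3.

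*Eda2r* was the most abundant of the 3 in WT cells. In 2i its FPKM was 34.4 and 39.5 in WT libraries and 0.0485 and 0 in P53-/- libraries. In serum it was 55.1 and 59.8 in WT libraries and 0.109 and 0.263 in P53-/- libraries. The WT means were 37.0 ± 3.60 in 2i and 57.5 ± 3.34 in serum (SD, n = 2). The receptor was thus higher than 91.6% of the 23580 genes that are not small RNAs in WT 2i and higher than 94.1% in WT serum. Without P53 it was higher than 32.6% in 2i and 43.8% in serum, at values near 0. Of the WT mean, 0.0656% was left in P53-/- 2i and 0.323% in P53-/- serum. Over the pairs of a P53-/- and a WT library, the share ran from 0 to 0.141% in 2i and from 0.182% to 0.477% in serum, so not one pair kept as much as 1 percent.

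*Cd80*, the ligand of CD28, was less abundant and was the only one of the 3 with a higher WT level in 2i that passed the test given below. In 2i its FPKM was 12.0 and 10.3 in WT libraries and 0.0632 and 0 in P53-/- libraries. In serum it was 4.78 and 3.63 in WT libraries and 0.0598 and 0.235 in P53-/- libraries. The WT means were 11.2 ± 1.17 in 2i and 4.20 ± 0.812 in serum (SD, n = 2). The lowest WT library, one in serum, lay far above the highest P53-/- library. The share of the WT mean left was 0.283% in 2i, with pairs between 0 and 0.612%, and 3.51% in serum, with pairs between 1.25% and 6.48%.

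*Serpine2*, the protease inhibitor, had close WT levels in both cultures and kept the largest share of them. In 2i its FPKM was 7.21 and 8.36 in WT libraries and 0.103 and 0 in P53-/- libraries. In serum it was 5.98 and 6.73 in WT libraries and 0.442 and 0.427 in P53-/- libraries. The WT means were 7.79 ± 0.814 in 2i and 6.36 ± 0.534 in serum (SD, n = 2). As for the other two, WT and P53-/- libraries did not overlap in either culture, which the choice of the genes fixes. The share left was 0.66% in 2i, with pairs between 0 and 1.43%, and 6.83% in serum, with pairs between 6.33% and 7.39%.

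**Figure D2:**
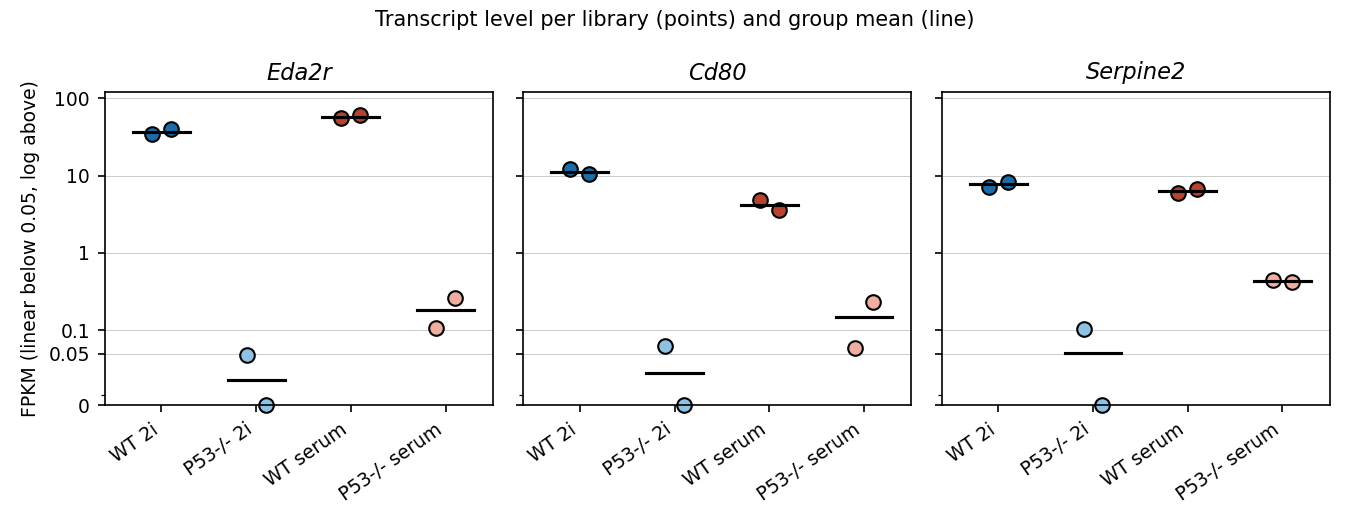
FPKM of *Eda2r*, *Cd80* and *Serpine2* in each of the 8 libraries (points) with the group mean (line), by group, on an axis that is linear at the bottom and logarithmic above. The 3 genes run from 3.63 to 59.8 FPKM in WT libraries and from 0 to 0.442 in P53-/- libraries.

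On the log2(FPKM + 0.1) scale the differences between P53-/- and WT were -8.25 in 2i and -7.71 in serum for *Eda2r*. They were -6.46 and -4.20 for *Cd80*, and -5.79 and -3.59 for *Serpine2*. With so little left these log2 values depend on the pseudocount: with 1 in place of 0.1, *Eda2r* came to -5.21 in 2i and -5.63 in serum, which turns the order of the cultures for that gene. The FPKM shares above use no pseudocount.

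What was left without P53 came to few fragments by the depth estimate, which holds only up to the factor assumed common to all libraries. From the longest annotated transcript and the estimated depth, the P53-/- 2i values corresponded to about 2.15 and 0 fragments for *Eda2r*, 1.87 and 0 for *Cd80*, and 3.26 and 0 for *Serpine2*. The same P53-/- 2i library was thus at 0 for all 3. By that estimate it was the shallower of the pair, at 5370000 against 9330000 fragments. In P53-/- serum the values corresponded to about 6.35 and 11.1 fragments for *Eda2r*, 2.34 and 6.65 for *Cd80*, and 18.4 and 12.9 for *Serpine2*, against 81.5 to 3373 in the WT libraries of the 2 cultures. Only whole-number counts would allow an interval, and the table gives none.

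All 3 genes had a higher mean in P53-/- serum than in P53-/- 2i. The mean was higher by 0.161 FPKM for *Eda2r*, 0.116 for *Cd80* and 0.383 for *Serpine2*. Leaving out 1 P53-/- library gave 0.0843 to 0.239 for *Eda2r*, 0.0282 to 0.203 for *Cd80* and 0.331 to 0.434 for *Serpine2*, the lowest value for *Eda2r* and *Cd80* being without the second serum library. Libraries of the cultures did not overlap for *Eda2r* and *Serpine2*, but did for *Cd80*, where 1 serum library, at 0.0598, was under the 2i library at 0.0632. These differences are given without a test, since the P53-/- values were part of the choice. A smaller share of cells with the transcript and less transcript in each cell cannot be told apart in bulk RNA, here and at every other level given.

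To place these shares, all genes with a WT mean of at least 1 FPKM in both cultures, small RNA genes aside, were ordered by the larger of their 2i and serum shares. Among these 10226 genes *Eda2r* stood 5th, *Cd80* 6th and *Serpine2* 8th. The median gene kept 102.1% in 2i and 101.1% in serum, and 6 genes kept under 5 percent in both cultures, 12 under 10 percent and 120 under 50 percent. Ahead of *Eda2r* were 4 genes, all listed at 0 in every P53-/- library: *Ano3* on chromosome 2, a member of the anoctamin family, and *Ddx3y*, *Eif2s3y* and *Uty* on the Y chromosome. Their WT means, 1.44 to 9.97 FPKM, were under those of *Eda2r*.

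Beside the 3 in this order stood *Zfp365*, *Ephx1*, *Phlda3*, *Inka2*, *Ccng1* and *Trp53inp1*. *Zfp365*, between *Cd80* and *Serpine2* in the order, kept 0.343% in 2i and 5.71% in serum. Just outside the group, *Ephx1*, the microsomal epoxide hydrolase, kept 6.57% and 6.95%, close to the 6.83% of *Serpine2* in serum. *Phlda3*, which restrains AKT, kept 8.33% and 4.10%, *Inka2* kept 5.34% and 8.41%, *Ccng1*, which codes for cyclin G1, kept 9.71% and 8.01%, and *Trp53inp1*, a stress-induced nuclear protein gene, kept 11.2% and 7.05%.

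**Figure D3:**
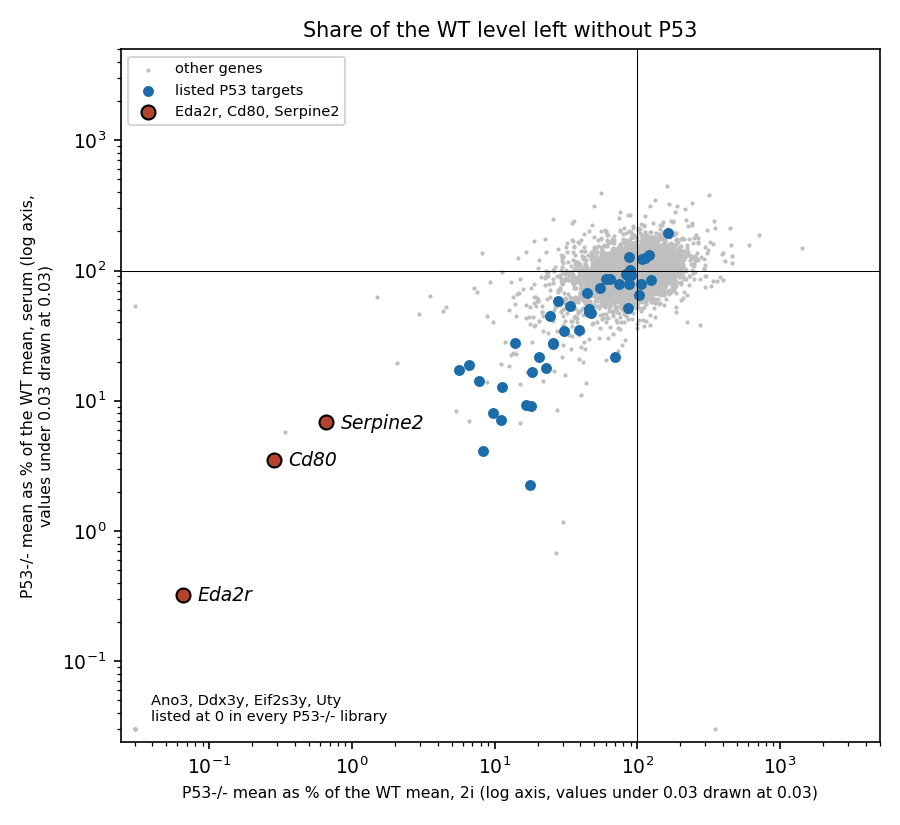
Percent of the WT mean FPKM left in P53-/- ESCs on log axes, 2i horizontal and serum vertical, for the 10226 ordered genes (grey), the listed P53 targets (blue) and *Eda2r*, *Cd80* and *Serpine2* (red). Genes listed at 0 are drawn at the lower edge, lines mark the WT level, and *Eda2r* lies nearest to 0 of the 3, at 0.0656% in 2i and 0.323% in serum, and *Serpine2* farthest, at 0.66% and 6.83%.

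A list of 46 other P53 targets, of which 44 passed the filter, was read beside the 3 genes, which were picked for the same measure. The P53-/- to WT share in this list had a median of 45.1% in 2i and 49.1% in serum, and 2 of the 44, *Phlda3* and *Ccng1*, kept under 10 percent in both. The shares ran from 5.60% to 164% in 2i and from 2.27% to 193% in serum, and the lowest serum share, that of *Plk2*, a polo-like kinase gene, was under those of *Cd80* and *Serpine2*. In the fit of all genes, calls were made by limma at adjusted p under 0.1 and fold over 1.5. In P53-/- 2i 27 of the 44 fell, where 5.97% of all genes fell. Of the 44, 0 rose (4.36% of all genes did), with 1 higher at an unadjusted p under 0.05. In P53-/- serum 19 of the 44 fell, where 0.883% of all genes fell, and again 0 rose (0.135% of all genes did), with 1 higher at an unadjusted p under 0.05. The serum count was 9 without the first WT serum library, 10 without the second, 13 without the second P53-/- serum library and 8 in the fit of the 2 groups alone. The 2i count was 17 in the fit of the 2 groups alone. The median log2 difference of the list was -1.15 in 2i and -1.04 in serum, against 0.02 in both over all genes tested.

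WT ESCs in 2i and serum were compared with a test. The genes were chosen on the loss in P53-/- and not on this difference, but the choice used the same WT values, and the fit of all groups also holds the P53-/- values near 0. The question is whether the culture alone changed these P53-dependent transcripts. *Cd80* was 2.63-fold higher in WT 2i than in WT serum on the log2(FPKM + 0.1) scale (log2 1.40, SE 0.44, 95% interval 0.37 to 2.43, adjusted p = 0.0268, limma), higher in both 2i libraries than in both serum libraries. In this comparison 55.7% of all tested genes were called, 27.2% higher in 2i and 28.6% lower, and 24.2% had a larger absolute change than *Cd80*, so a change of this size was common. The call was lost without the first WT 2i library (adjusted p = 0.116), without the second WT serum library (adjusted p = 0.132) and with a pseudocount of 0.01 (adjusted p = 0.236). Of the 44 other P53 targets tested, 18 were called higher in WT 2i and 10 lower, with a median log2 difference of 0.53 against -0.02 over all genes.

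*Eda2r* went the other way in level, with both serum libraries above both 2i libraries, but did not pass. Its log2 difference, 2i minus serum, was -0.64 (SE 0.31, 95% interval -1.35 to 0.08, adjusted p = 0.111, limma). A fit of the 4 WT libraries alone gave the same difference with an adjusted p of 0.0119, and leaving out any of the 4 P53-/- libraries gave 0.0550 to 0.0945. Those libraries, with values of *Eda2r* near 0, enter the shared estimate of its spread. For *Serpine2* the log2 difference was 0.29 (SE 0.36, 95% interval -0.56 to 1.13, adjusted p = 0.518, limma), and 2i libraries were above serum libraries without overlap. The P53-/- values of *Serpine2*, at 0.103 and 0 FPKM in 2i, enter the spread behind that interval too. The interval still allows a 2i level more than 2-fold higher, so equal levels were not shown.

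The proportions among the 3 transcripts in WT cells differed between the cultures, without overlap of the libraries. Per kilobase, *Eda2r* was 2.87 and 3.83 times *Cd80* in the 2i libraries and 11.5 and 16.5 times in the serum libraries. *Eda2r* was 4.77 and 4.73 times *Serpine2* in 2i and 9.21 and 8.88 times in serum. *Cd80* was above *Serpine2* in 2i, at 1.66 and 1.24 times its level, and under it in serum, at 0.799 and 0.539 times. These ratios are given as values, with no test of their difference.

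**Figure D4:**
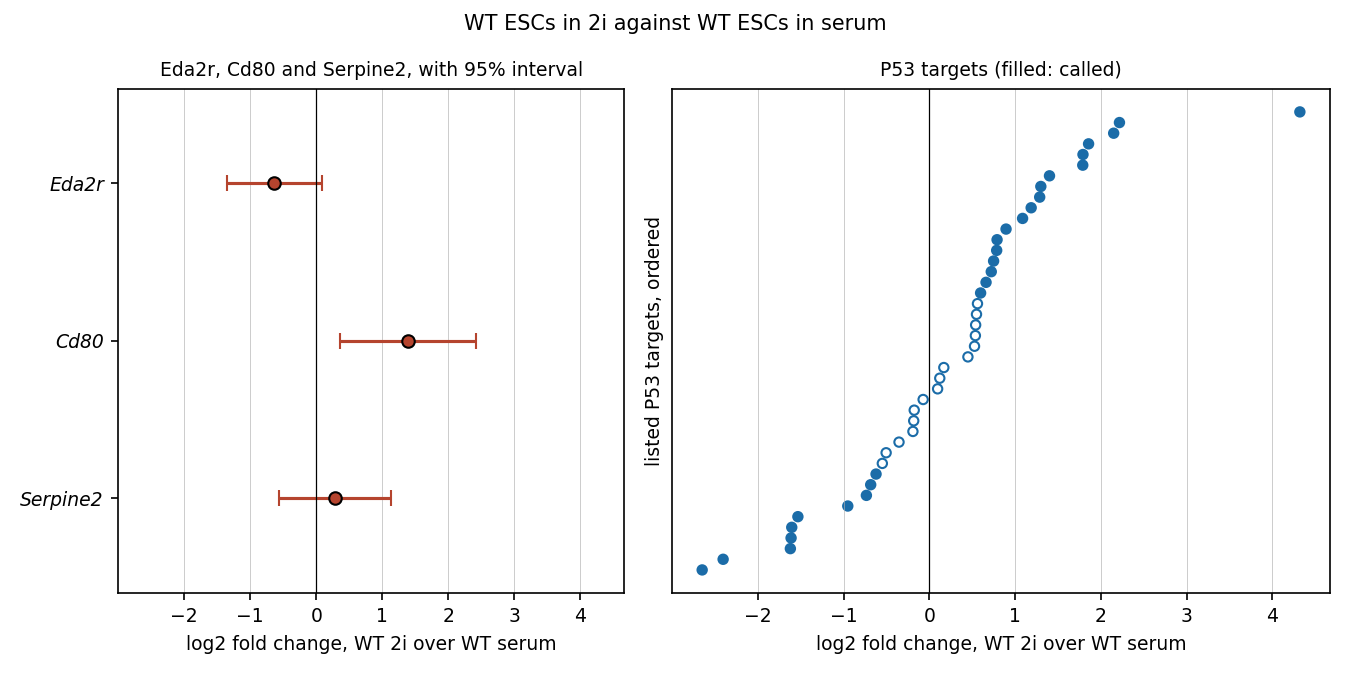
Difference, WT 2i minus WT serum, in log2(FPKM + 0.1), for *Eda2r*, *Cd80* and *Serpine2* with the 95% interval (left) and for the 44 tested P53 targets in order (right, filled where called: 18 higher and 10 lower in 2i). The interval of *Cd80*, 0.37 to 2.43, lies above 0, while those of *Eda2r* and *Serpine2* hold 0.

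Over the 8 libraries the 3 genes followed much the same pattern, as their choice makes likely. Pearson's r of log2(FPKM + 0.1) was 0.969 between *Eda2r* and *Cd80*, 0.976 between *Eda2r* and *Serpine2* and 0.969 between *Cd80* and *Serpine2*. Among the other 12569 tested genes, the most like *Eda2r* were *Ano3* (r = 0.99), *Lrp1* (0.981), *Wdr35* (0.979), *Rnf169* (0.979) and *Tnfrsf10b* (0.975). The most like *Cd80* were *Bbc3* (0.994), *Gm32688* (0.99), *Psrc1* (0.982), *Plcg1* (0.976) and *Nkx6-2* (0.976). The most like *Serpine2* were *Lrp1* (0.987), *Ptpn14* (0.984), *Rapgef3* (0.979), *Ptp4a3* (0.978) and *Zfp365* (0.975). The points share libraries and mostly reflect genotype, so r describes a pattern and not a size of change.

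The values of *Bbc3* and *Lrp1* show the pattern. *Bbc3*, which codes for the cell death protein PUMA, had the pattern of *Cd80*. With P53 its FPKM was 9.54 and 11.4 in 2i against 5.89 and 4.0 in serum, and without P53 it was 0.697 and 0.476 against 0.756 and 0.947. Like *Cd80* it was higher in both WT 2i libraries than in both WT serum libraries, but it kept more without P53. *Lrp1*, an endocytic receptor that takes up complexes of SERPINE2 with its proteases, was like both *Serpine2* and *Eda2r*. With P53 its FPKM was 3.98 and 4.38 in 2i against 5.07 and 5.19 in serum, and without P53 it was 0.571 and 0.555 against 1.24 and 1.14.

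Genes beside the 3 on their chromosomes did not share the loss. The nearby tested genes of *Eda2r* lay far off, with *Heph* at 759.4 kb and *Hsf3* at 877.5 kb on one side and *Yipf6* at 1559 kb on the other. Their log2 differences in P53-/- 2i were 0.02, -0.16 and 0.06, and none of the 3 passed. *Cd80* lies close to its neighbours: *Timmdc1* at 2.01 kb and *Adprh* at 2.86 kb were at 0.52 and 0.42, and *Pla1a* at 22.4 kb was at 0.88, all without a call. *Poglut1*, at 28.8 kb from *Cd80*, fell by 0.62 on the log2 scale in 2i (adjusted p = 0.0330, limma), from 34.2 and 31.4 FPKM to 22.2 and 20.4.

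Around *Serpine2*, *Wdfy1* at 18.1 kb was at 0.00, *Mrpl44* at 12.8 kb at -0.15 and *Cul3* at 403.7 kb at 0.30, without a call. *Rhbdd1*, at 2455 kb, rose by 0.71 in P53-/- 2i (adjusted p = 0.0859, limma), where 4.36% of all tested genes rose. So 2 of the 11 neighbours were called in 2i, against 10.3% of all tested genes in either direction, and 0 of 11 were called by limma in serum, against 1.02%. At an unadjusted p under 0.05 there were 4 of 11 in 2i and 0 of 11 in serum, against 25.2% and 11.3% of all tested genes.

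**Figure D5:**
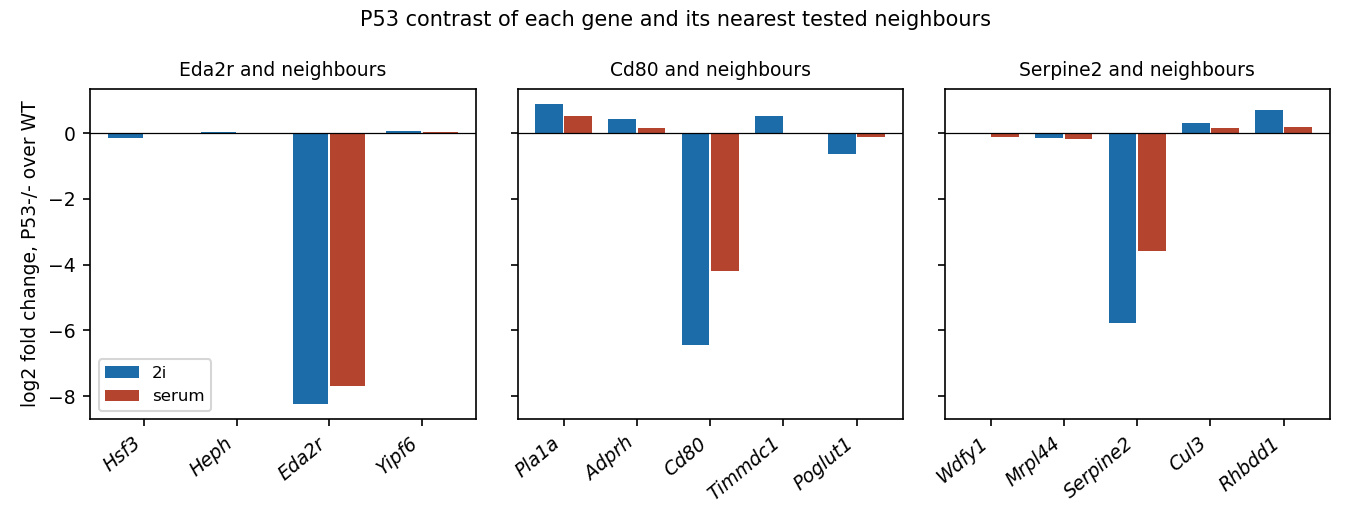
Log2 difference, P53-/- minus WT, of *Eda2r*, *Cd80* and *Serpine2* and up to 2 of the nearest tested genes on each side, in order along the chromosome, in 2i and in serum. The 3 genes lie between -8.25 and -3.59 and their neighbours between -0.62 and 0.88.

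The pathway of *Eda2r* was read from a list. Of 17 listed genes of ectodysplasin signalling, 14 passed the filter. In P53-/- 2i 1 of the 14 fell, *Ikbkb*, a kinase that activates NF-kB, with a log2 difference of -0.77 (adjusted p = 0.0309, limma), and 0 rose, near the 5.97% and 4.36% of all tested genes. At an unadjusted p under 0.05, 2 were lower and 1 was higher. In P53-/- serum 0 of the 14 were called by limma, against 1.02% of all tested genes, and 0 had an unadjusted p under 0.05. The list's median log2 difference was -0.15 in 2i and 0.01 in serum. *Eda*, the ligand gene, had an FPKM of 1.03 and 1.36 in WT 2i against 0.532 and 0.445 in WT serum, and was among the 4 of 14 called higher in WT 2i, while 2 were called lower, against 27.2% and 28.6% of all tested genes. *Edar*, the receptor for the A1 form, was at 0.0335 FPKM in 1 WT 2i library and listed at 0 in the other 7, while *Eda2r* was at 34.4 to 59.8 in the WT libraries.

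The TNF receptor family holds the relatives of *Eda2r*. *Tnfrsf19* (TROY), a receptor often grouped with *Edar* and *Eda2r*, had an FPKM of 4.93 and 8.80 in the WT libraries of the 2i culture, 11.5 and 12.8 in the P53-/- ones, and 2.18 to 3.27 over the serum libraries, with no call for P53 in either culture. Without the second WT 2i library it was called higher in P53-/- 2i (log2 1.28, adjusted p = 0.0669, limma). Of the 27 other listed receptors, 14 passed the filter. In P53-/- 2i 2 of them fell, where 5.97% of all tested genes fell: *Tnfrsf10b*, the death receptor for TRAIL (log2 -1.65, adjusted p = 0.0134, limma), and *Ngfr*, the p75 neurotrophin receptor (-1.44, adjusted p = 0.00435). In P53-/- serum *Tnfrsf10b* fell (-1.54, adjusted p = 0.0596) and the other 13 were not called, where 0.883% of all tested genes fell. In neither culture did a receptor of the list rise, with 2 higher at an unadjusted p under 0.05 in 2i and 0 in serum, where 4.36% and 0.135% of all tested genes rose. Between the WT cultures 10 of the 14 were called higher in 2i and 1 lower, against 27.2% and 28.6% of all tested genes, while *Eda2r* did not pass here and was called lower in 2i in 6 of 17 alternatives.

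Most relatives of *Cd80* were at or near 0. *Cd86*, the other ligand of CD28 and CTLA4, reached at most 0.191 FPKM in a library, and the receptor genes *Cd28* and *Ctla4* reached at most 0.0319 and 0. Of 12 listed genes of the B7 and CD28 families 2 passed the filter, *Cd276* and *Icosl*, and 0 of the 2 were called by limma for P53 in either culture, where 10.3% of all tested genes were called in 2i and 1.02% in serum, nor had either an unadjusted p under 0.05. Both were called lower in WT 2i than in WT serum, as 28.6% of all tested genes were, whereas *Cd80* was higher. *Cd276* was at log2 -2.04 (adjusted p = 0.000101, limma). *Icosl* was at -0.68 (adjusted p = 0.0929, unadjusted p = 0.0610, limma).

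Because CD80 is best known from antigen-presenting cells, the markers of such cells were read beside it. Of the 11 read, *Itgax* was listed at 0 in all 8 libraries, and *Ptprc*, the pan-leukocyte gene, did not exceed 0.0593 FPKM. In 2i the summed level of the list ran from 14.02 to 19.9 FPKM in WT libraries against 10.6 to 12.6 in P53-/- libraries, and in serum from 9.81 to 11.4 against 4.49 to 4.62. *Laptm5* carried much of it, with 11.8 and 12.2 against 2.81 and 2.69 in 2i, and 9.90 and 8.89 against 2.25 and 0.981 in serum. This lysosomal protein gene was lower in P53-/- without overlap, as *Cd80* was, and its part in the result for *Cd80* was not tested. Other genes of the list went the other way or varied between libraries. *H2-Ab1*, a class II antigen-presentation gene, was at 6.38 and 1.22 in WT against 6.30 and 8.32 in P53-/- libraries in 2i, and *Cd74*, its invariant chain, at 0.813 and 0.129 against 1.02 and 1.85 in serum.

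The serpin family holds the relatives of *Serpine2*. Of 19 other serpins 10 passed the filter. In P53-/- 2i 0 of the 10 fell by limma, with 0 lower at an unadjusted p under 0.05, where 5.97% of all genes fell, and 4 rose, where 4.36% of all genes rose: *Serpinf1* by 3.22, *Serpinb9b* by 1.96, *Serpinb9* by 1.80 and *Serpinh1*, a collagen chaperone of the family, by 0.67. In P53-/- serum 0 of the 10 were called by limma, against 1.02% of all tested genes. At an unadjusted p under 0.05, 4 were higher and 0 lower, where 11.3% of all tested genes passed in either direction. Between the WT cultures 7 of the 10 were called higher in 2i and 0 lower, against 27.2% and 28.6% of all tested genes, with 0 lower at an unadjusted p under 0.05.

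Proteases and receptors linked to SERPINE2, protease-activated receptors among them, were listed as 20 genes, 17 of which passed the filter. In P53-/- 2i 4 fell, where 5.97% of all tested genes fell: *Lrp1* (log2 -2.69, adjusted p = 0.000585, limma), the secreted protease *Htra1* (-1.82), and the heparan sulphate carriers *Sdc4* (-1.60, adjusted p = 0.0133) and *Sdc1* (-0.75). Of the 17, 1 rose, *F2rl1*, a protease-activated receptor, by 0.96, where 4.36% of all tested genes rose. In P53-/- serum *Lrp1* (log2 -2.02, adjusted p = 0.00601, limma) and *Sdc4* (-1.69, adjusted p = 0.0348) fell, so these 2 were lower in both cultures, and in serum 0.883% of all tested genes fell. In serum 0 rose, where 0.135% of all tested genes rose, with 1 higher at an unadjusted p under 0.05. The list's median was -0.33 in 2i and -0.20 in serum against 0.02 over all genes in both.

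*Serpine2* is abundant in fibroblasts and other mesenchymal cells, so their markers were read beside it too. The summed level of 10 fibroblast markers ran from 1.08 to 1.83 FPKM in the 2i libraries, from 8.45 to 8.78 in WT serum and from 9.29 to 10.9 in P53-/- serum. *Col3a1* and *Postn* were listed at 0 in all 8 libraries. *Thy1* made up most of the serum sums, at 8.21 and 7.55 in WT and 10.5 and 8.65 in P53-/- libraries. Other genes of the list differed in direction. *Col1a1*, a collagen gene, was lower in P53-/-, at 0.368 and 0.501 against 0.0847 and 0.0301 in 2i and 0.0857 and 0.183 against 0.0648 and 0.0687 in serum. *Lum*, a matrix proteoglycan gene, was at 0 and 0.0941 in WT against 0.305 and 0.271 in P53-/- libraries in 2i. The part of such cells in the result for *Serpine2* was not tested. The sum of 8 primitive endoderm markers ran from 3.34 to 6.29 in WT against 1.72 to 2.62 in P53-/- libraries in 2i, and from 20.02 to 20.2 against 12.5 to 12.997 in serum. The sum of 8 trophoblast markers ran from 78.9 to 129.96 against 66.7 to 68.4 in 2i, and from 19.5 to 19.8 against 11.8 to 18.9 in serum. Single genes carried much of these sums, the trophoblast one in 2i and the primitive endoderm one in serum. *Krt8*, a keratin, was at 102.6 FPKM in the first WT 2i library, and *Col4a1*, a basement membrane collagen gene, was at 17.1 and 17.4 in WT serum. *Krt7*, another keratin, went the other way in 2i, at 0.165 and 0.883 in WT against 2.39 and 1.94 in P53-/- libraries. Both sums were lower in P53-/- in each culture, by less than the 3 genes, and their part was not tested.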

How the data were processed

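Transcripts were measured by RNA-seq in WT and P53-/- R1 ESCs with FUCCI reporters, sorted in G1 phase and grown in 2i or serum. The authors made the libraries from ribosomal RNA-depleted total RNA with random primers and a stranded kit, and deposited 1 table of FPKM values, a column per library. FPKM is scaled to transcript length and mapped fragments, so abundant small RNAs can lower other values. The submitters' processing notes name STAR, Cufflinks, DESeq2 and mm9. Their roles and versions and the annotation are not given in the sources used here.

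Columns name genotype and culture only. Libraries are numbered by column order, and this number pairs nothing. The labels hold 12 samples, and 4 of them, those of the P21-/- comparison, were not analysed here, nor was any ChIP-seq. No 2 libraries of a group held the same values (at most 0.00614% of values identical).

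limma 3.58.1 in R 4.3.3 was run on log2(FPKM + 0.1), keeping a gene where its mean over all libraries reached 0.5 FPKM (12572 genes), as 1 fit of 4 groups, eBayes with trend and Benjamini-Hochberg adjustment over all genes tested. Calls needed an adjusted p under 0.1 and a fold over 1.5, thresholds the study states. The script was tested on simulated data. Fold changes on this scale understate the change of low genes. Positions are from GENCODE M21 (98.2% of symbols matched by name) and promoters from RefSeq GRCm38.p6.

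The 3 genes, the gene lists and the tests were chosen with earlier results of these data known. Other genes are named where they were the 5 most correlated with a member, the 10 with the smallest share left, the 2 nearest tested genes on each side, a called gene of a list, or a close paralog. Some genes that meet this rule or belong to a list are not reported here and were left out of the counts of lists and neighbours. Marker genes and list members below the filter were named after their values were seen. Alternatives were other pseudocounts, filters and scalings, a fit of the compared groups alone, eBayes without trend, no small RNA genes, and leaving out each library.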

Additional observations from a re-analysis of the deposited data

How the results depend on the processing

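No paired analysis was possible because the columns carry no replicate numbers. With 2 libraries a group the SD of a level is itself poorly known, and where 1 library was left out the lone library of its group was assumed to vary like the others. Depth is an estimate, so the residual FPKM in P53-/- carry no counting interval.

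In the WT culture comparison, *Serpine2* stayed under the threshold in all 17 alternatives (log2 0.18 to 0.39, adjusted p 0.182 to 0.807). *Cd80* stayed called in 14 of 17 (adjusted p 0.000763 to 0.236), with a log2 difference of 1.42 at a pseudocount of 0.01 and 1.20 to 1.59 without 1 library. *Eda2r* became called in 6 of 17 (adjusted p 0.00617 to 0.491), with -0.62 at a pseudocount of 1, -0.64 in the fit of the 2 groups alone and -0.74 to -0.54 without 1 library. For these calls the cause was not tested.

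The log2 differences between P53-/- and WT follow the pseudocount by construction. At 1 they were -5.21 in 2i and -5.63 in serum for *Eda2r*, -3.56 and -2.18 for *Cd80*, and -3.06 and -2.36 for *Serpine2*. At 0.01 they were -10.58 and -8.32, -8.69 and -5.00, and -7.86 and -3.84. Quantile normalization gave *Serpine2* in serum a difference of -3.38, 8.13% of the WT mean left and a P53-/- serum minus P53-/- 2i difference of 0.459 FPKM. Without 1 library the share left ran from 0 to 0.131% in 2i and 0.189% to 0.457% in serum for *Eda2r*, 0 to 0.566% and 1.42% to 5.59% for *Cd80*, and 0 to 1.32% and 6.45% to 7.26% for *Serpine2*.

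Counts of called genes for P53 moved with the samples in the fit, and the cause was not tested. A fit of the 2 compared groups alone called 193 genes in 2i and 37 in serum (1299 and 128 in the fit of 4 groups), while that of WT 2i against WT serum called 6978 (7008). The P53 fits of 2 groups called 20 and 9 listed genes (38 and 21), and 17 and 8 P53 targets as lower (27 and 19). Without 1 library the counts ran from 491 to 1224 in 2i and 52 to 148 in serum for all genes, and in serum from 10 to 21 for listed genes and 9 to 19 for P53 targets. The serum difference of *Tnfrsf19* changed sign without 1 library, within -0.26 to 0.31, being -0.16 without the second P53-/- library and -0.26 without the first WT library, and was not called. The median log2 difference over all genes stayed within 0.04 of 0 under each scaling.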

Other observations

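The level of *Trp53* and of the residual transcripts differed between the P53-/- libraries of a culture. In 2i the library with the lower *Trp53*, 1.88 against 7.25 FPKM, was the one listed at 0 for *Eda2r*, *Cd80* and *Serpine2*. In serum the library with the lower *Trp53*, 3.68 against 16.8, had the higher *Eda2r* (0.263 against 0.109) and the higher *Cd80* (0.235 against 0.0598), while *Serpine2* was at 0.427 against 0.442. These are values of 4 libraries with no test.

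The WT 2i libraries differed in genes of the Y chromosome, which the P53-/- libraries listed at 0. *Ddx3y* was at 0.368 and 4.59 FPKM and *Uty* at 0.142 and 2.73 in the first and second WT 2i library. *Eda2r*, on the X chromosome, was at 34.4 and 39.5 in the same libraries and *Cd80* at 12.0 and 10.3.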
